A study of Mus musculus with 2 samples.

Results

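Prostaglandins are lipid signals made from arachidonic acid, and the genes described here are the 9 that make, inactivate or sense them: the phospholipase Pla2g4a, the cyclooxygenases Ptgs1 and Ptgs2, the terminal synthases Ptges, Ptgis and Ptgds, the inactivating enzyme Hpgd, and the prostaglandin E2 receptors Ptger2 and Ptger4. They were taken by gene symbol from the 27998 genes of the count tables, and each was found in both libraries. Cytosolic phospholipase A2, the product of Pla2g4a, frees arachidonic acid from membranes, and the cyclooxygenases turn it into prostaglandin H2. Ptgs1 is known as the constitutive form and Ptgs2 as the form that inflammatory signals raise in many cell types. Ptges then forms prostaglandin E2, Ptgis prostacyclin and Ptgds prostaglandin D2, while Hpgd begins their breakdown. Ptger2 and Ptger4 encode EP2 and EP4, receptors that raise cyclic AMP. In lung, fibroblasts and epithelium are both known sources of prostaglandin E2.

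Organoids were grown in Matrigel from sorted alveolar type 2 (AT2) cells of C57BL/6 mice of the SPCCreERT2;R26RtdTomato line, so that tamoxifen labels cells in which the promoter of the surfactant protein C gene Sftpc is active. Lung stromal cells sorted as negative for CD31, CD45 and EpCAM were cultured with them, and both conditions hold these stromal cells. Control organoids received PBS and the other organoids IL-1β, an inflammatory cytokine, and each condition is 1 library of droplet-based scRNA-seq. The labels do not say how many mice or cultures a library pools, and the IL-1β dose and the length of culture are not given alike in the legend and methods of the study. With 1 library per condition no test was possible. Cells from the same library do not replicate a condition, and the 95% intervals given here reflect counting error alone.

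The control library held 2101 cell barcodes with a median of 14613 unique molecular identifiers (UMIs), and the IL-1β library 3066 with a median of 11496.5; 11 barcodes were shared. After the cutoffs 2081 control and 3058 IL-1β cells were used. Stromal cells numbered 793 in control and 476 in IL-1β organoids. The epithelial cells were 1288 and 2582, of which 904 and 1920 were AT2-lineage cells, 256 and 355 AT1-like cells, and 33 and 260 resembled damage-associated transient progenitors (DATP-like), an intermediate between AT2 and AT1 cells. The rest, 95 and 47 cells, stayed unnamed. A class was made up of different clusters in each library: AT2-lineage cells mainly of E0 in control and of E1, E2, E4 and E5 in IL-1β organoids, AT1-like cells of E7 and E3, and DATP-like cells of E11 (led by Sprr1a and Gstm1) and E6 (with F3 and Susd2 among its leading genes). The pathway genes were left out of clustering and naming, including Ptges, which the study uses as a marker of primed AT2 cells. Most markers were highest in the class they mark, but the classes were named by these same lists, so this is no independent check. All 7 stromal markers were highest in stroma in both libraries, as were 10 of 11 and 8 of 11 AT2 markers in AT2-lineage cells, 10 of 10 and 9 of 10 AT1 markers in AT1-like cells and 5 of 7 and 6 of 7 DATP markers in DATP-like cells, in control and IL-1β organoids. Among the exceptions, the DATP marker AW112010 was at 118 CPM in control stroma against 45.5 CPM in control DATP-like cells, and at 753 CPM in IL-1β AT1-like cells against 341 CPM in IL-1β DATP-like cells. Stromal cells had 1403 and 1402 CPM (UMIs per 1000000 UMIs of the class) of the collagen gene Col1a1 in control and IL-1β organoids, against 27.2 and 23.4 CPM in epithelial cells. A background stood behind every comparison between classes, since RNA of other cells is also found in droplets. The 4 stromal markers Col1a1, Col1a2, Col3a1 and Dcn appeared in epithelial cells at 1.94% to 2.55% of their stromal CPM in control and at 1.67% to 2.42% in IL-1β organoids. Background below refers to these 4. Of the other stromal markers, Pdgfra and Pdgfrb were at 3.44 and 2.92 CPM in control epithelial cells, against 201 and 221 CPM in stroma. Sparc lay above this range, at 282 CPM in control AT2-lineage and 3261 CPM in control AT1-like cells, against 3657 CPM in stroma. In the other direction, 6 AT2 markers appeared in stromal cells at 2.97% to 3.85% and at 5.76% to 7.20% of their AT2-lineage CPM. These ranges include stromal cluster S8, led by Slc34a2 and Ptprf. Its 24 IL-1β cells had 26268.5 CPM of Sftpc, against 2507 to 4634 CPM in the IL-1β cells of S1, S3, S4 and S6.

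The 9 genes lie on 5 chromosomes of GRCm38 in the GENCODE M21 annotation. Pla2g4a (chr1:149829618-149961290, minus strand) and Ptgs2 (chr1:150100031-150108227, plus strand) are on chromosome 1. Chromosome 2 holds Ptgds (chr2:25466709-25470046, minus strand), Ptges (chr2:30889471-30929863, minus strand), Ptgs1 (chr2:36230426-36252272, plus strand) and Ptgis (chr2:167191805-167240604, minus strand). Hpgd (chr8:56294585-56321043, plus strand), Ptger2 (chr14:44988195-45003820, plus strand) and Ptger4 (chr15:5206661-5244187, minus strand) lie elsewhere. The sequences before the transcription starts of Ptgs2, Ptges and Ptgs1 are shown because these 3 genes carry most of the signal and behaved differently: in stroma Ptgs2 and Ptges were called higher with IL-1β and Ptgs1 was not called. Each run is the 250 bases before the RefSeq start on GRCm38.p6, read 5′ to 3′ on the strand of the gene. They cover chr1:150099781-150100030 (plus strand) for Ptgs2, chr2:30903298-30903547 (minus strand) for Ptges and chr2:36230176-36230425 (plus strand) for Ptgs1. For Ptges the RefSeq start differs from the GENCODE start, and its run lies inside the GENCODE span given above. Capitals mark matches, on either strand, to 8 short motifs. The search used TATAAA for the TATA box and TTGCGCAA for the C/EBP family of factors. The core of the cyclic AMP response element was searched as CGTCA, while the E-box, which helix-loop-helix factors bind, was searched as CACGTG. For the factor AP-1 the letters were TGANTCA, whereas those for the factor Sp1 were GGGCGG. The remaining motifs were the CCAAT box and a consensus of NF-kB.
Ptgs2: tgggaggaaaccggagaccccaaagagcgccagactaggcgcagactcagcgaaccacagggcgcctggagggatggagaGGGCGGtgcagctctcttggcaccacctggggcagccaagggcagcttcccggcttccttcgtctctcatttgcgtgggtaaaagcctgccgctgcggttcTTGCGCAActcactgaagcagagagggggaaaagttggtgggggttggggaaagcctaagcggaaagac
Ptges: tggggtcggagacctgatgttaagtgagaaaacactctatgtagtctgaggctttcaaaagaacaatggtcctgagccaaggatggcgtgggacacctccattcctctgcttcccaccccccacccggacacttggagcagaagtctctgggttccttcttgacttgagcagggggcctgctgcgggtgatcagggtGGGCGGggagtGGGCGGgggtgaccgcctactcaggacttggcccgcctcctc
Ptgs1: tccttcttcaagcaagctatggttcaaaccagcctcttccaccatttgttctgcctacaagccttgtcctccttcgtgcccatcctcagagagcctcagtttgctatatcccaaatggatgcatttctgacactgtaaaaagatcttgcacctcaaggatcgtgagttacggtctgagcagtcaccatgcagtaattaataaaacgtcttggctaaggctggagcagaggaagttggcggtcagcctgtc
The Ptgs2 run held the C/EBP motif 69 bases before the start and an Sp1 motif 170 bases before it. The C/EBP motif was present in 0.183% of the 32851 RefSeq promoter windows of 300 bases (250 before and 50 after the start), and the Sp1 motif in 35.7%. Past the start, the Ptgs2 window also held CGTCA and the overlapping CACGTG, which begin at bases 14 and 17 of the transcript and occur in 20.8% and 7.15% of windows. The Ptges run held the Sp1 motif 2 times, 53 and 42 bases before the start. In the Ptgs1 run none of these letters were found. The other motifs, found in none of these 3 runs, were present in 13.6% (TATA box), 7.81% (AP-1), 1.63% (NF-kB) and 37.4% (CCAAT) of windows. Windows were found for 8 of the 9 genes. A match is a string of letters and not evidence of binding.

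Per UMI sequenced, most of these genes were higher in stromal cells. Of the 7 genes with at least 20 UMIs, 6 were at least 2-fold higher in stromal than in epithelial cells with an interval that excludes 1, in control and in IL-1β organoids alike. Over all genes tested, 22.9% were called higher and 16.4% lower in control stroma, and 15.8% higher and 22.7% lower in IL-1β stroma. No member was called lower in either library. The median log2 ratio of the members was 4.21 in control and 4.41 in IL-1β organoids, against 0.18 and -0.22 over all genes tested. The IL-1β median is the ratio of Ptger4, from 26 stromal and 4 epithelial UMIs. Ptger2 and Ptger4 reached 20 UMIs only through stroma, their epithelial UMIs being 15 and 3 in control and 12 and 4 in IL-1β organoids. The members were chosen with earlier results of these data known, so these counts and medians only describe them. The other genes of the prostaglandin lists did not share this lean toward stroma. Of 22 tested in control, 7 were called higher and 7 lower in stroma, and of 21 in IL-1β organoids 5 and 5. Their median log2 ratios were -0.14 and -0.40, so the result holds for the members and not for the pathway as a whole. Stromal cells were 38.1% of control cells and 15.6% of IL-1β cells, yet held 93.8% and 93.0% of the Ptgs2 UMIs. Of the Ptges UMIs they held 74.5% in control and 46.4% in IL-1β organoids, of the Ptgs1 UMIs 26.4% and 17.8%, and of the Ptgds UMIs none. The plot of levels by class shows this division for all 9 genes.

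**Figure D1:**
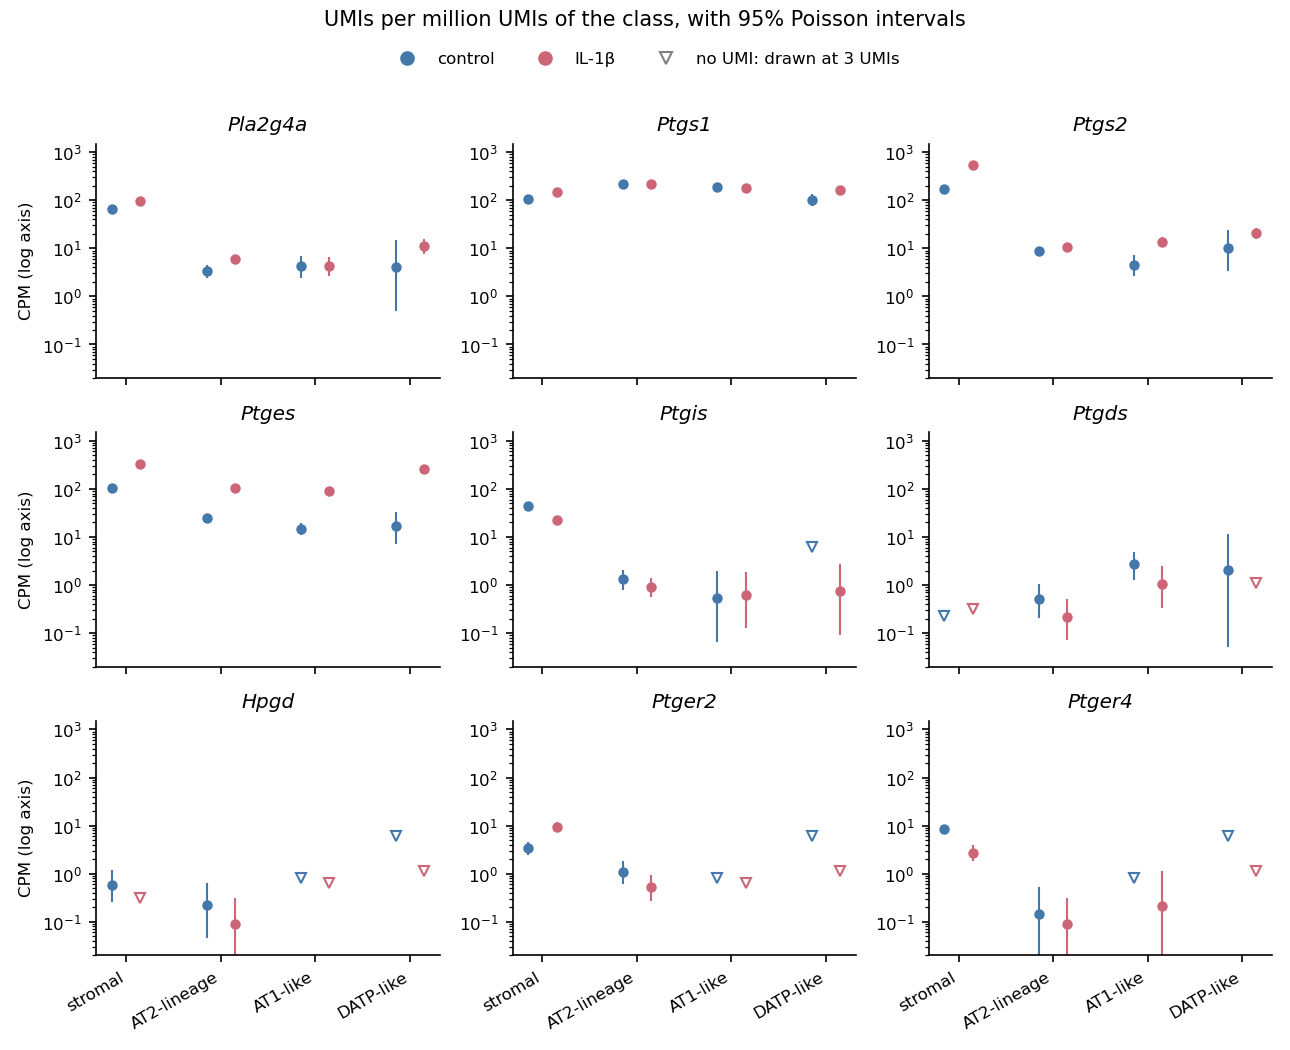
CPM of each gene (log axis) in the 4 classes of control (blue) and IL-1β (red) organoids, with 95% Poisson intervals. Open triangles mark classes with no UMI, drawn at the level of 3 UMIs. Ptgs2, Ptgis, Pla2g4a and both receptors sit highest in stromal cells, Ptgs1 is at 101 to 220 CPM in every class, and Ptges is higher in IL-1β organoids in all 4 classes.

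Pla2g4a, which supplies the arachidonic acid, was at 64.5 CPM in control stroma and 96.0 CPM in IL-1β stroma. The ratio of 1.49 (1.35 to 1.63) lay under the 2-fold limit. In the epithelium it was at 3.37 and 5.91 CPM in AT2-lineage cells, at 4.32 and 4.38 CPM in AT1-like cells and at 4.14 and 11.2 CPM in DATP-like cells, the control value of the last resting on 2 UMIs. These levels were 4.56% to 11.7% of the stromal level of the same library, above the range of the 4 background markers, except that the interval of the control DATP-like value reaches down to 0.775%. Pla2g4a was thus 18.5-fold (14.4 to 24.1) and 15.4-fold (13.2 to 18.1) higher in stroma than in all epithelial cells. UMIs of Pla2g4a were found in 54.1% of control and 65.5% of IL-1β stromal cells.

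Ptgs1 was the main cyclooxygenase of the epithelium. AT2-lineage cells had 220 CPM (212 to 228) in control and 218 CPM (212 to 224) in IL-1β organoids, a ratio of 0.994 (0.949 to 1.04). AT1-like cells had 187 and 183 CPM, a ratio of 0.978 (0.885 to 1.08). DATP-like cells had 101 CPM (75.0 to 134) in control and 162 CPM (147 to 178) in IL-1β organoids, a ratio of 1.60 (1.19 to 2.20) that was not called. In AT2-lineage cells Ptgs1 UMIs were seen in 90.7% of control and 83.7% of IL-1β cells, and in 62.7% and 59.3% once each cell was thinned to 4500 UMIs. Stromal cells held less, 105 CPM in control and 145 CPM in IL-1β organoids. The stromal level was 0.508 times (0.477 to 0.539) the epithelial level in control and 0.711 times (0.671 to 0.754) in IL-1β organoids, and neither passed the 2-fold limit. AT2-lineage cells had 210% and 150% of the stromal level of Ptgs1, whereas AT2 markers were at under 10% of their AT2-lineage level in stroma.

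Ptgs2 was found mainly in the stroma, where Ptgs1 was present as well. Of control stromal cells, 34.4% had a Ptgs1 UMI at 4500 UMIs per cell. Among control stromal clusters Ptgs1 was above Ptgs2 in S2, S7 and S9 and below it in S0, S4 and S5. Over all stromal cells Ptgs2 went from 175 CPM (168 to 182) in control to 548 CPM (533 to 563) in IL-1β organoids, a ratio of 3.13 (2.98 to 3.28). This call rests on cluster S6, 74 IL-1β cells described with the stromal clusters: without it the ratio was 1.97 and not called. The UMIs were unevenly spread over cells. The tenth of stromal cells with the most Ptgs2 UMIs held 57.1% of them in control and 54.4% in IL-1β organoids, and single cells reached 201 and 390 UMIs. The share of stromal cells with a Ptgs2 UMI, at 4500 UMIs per cell, was 35.3% (32.0 to 38.7) in control and 60.5% (56.0 to 64.9) in IL-1β organoids, and unthinned it was 58.9% and 83.6%, at medians of 15735 and 14869.5 UMIs per cell.

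In epithelial cells Ptgs2 was at 1.99% to 5.90% of its stromal level, near the background. AT2-lineage cells had 8.79 CPM in control and 10.9 CPM in IL-1β organoids, a ratio of 1.24 (0.994 to 1.56). In control these cells reached 5.02% (4.14 to 6.03) of the stromal level, above the 1.79% to 2.47% of the 4 background markers in the same cells. In IL-1β organoids they reached 1.99% (1.75 to 2.26), within the markers' 1.68% to 2.57%. AT1-like cells had 4.59 CPM (17 UMIs) and 13.5 CPM (65 UMIs), a called ratio of 2.95 (1.71 to 5.36). Both AT1-like levels were close to background, at 2.62% (1.52 to 4.21) of the stromal level in control, where stromal markers reached 2.11% to 3.10%, and at 2.47% (1.90 to 3.16) in IL-1β organoids, where they reached 1.69% to 2.20%. At these levels Ptgs2 expressed by AT1-like cells and stromal RNA in their droplets cannot be told apart, and the call was not tested further. DATP-like cells had 10.3 CPM (5 UMIs) in control and 20.6 CPM in IL-1β organoids, the latter at 3.75% (2.82 to 4.89) of the stromal level, above the markers' 1.68% to 2.49%.

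**Figure D2:**
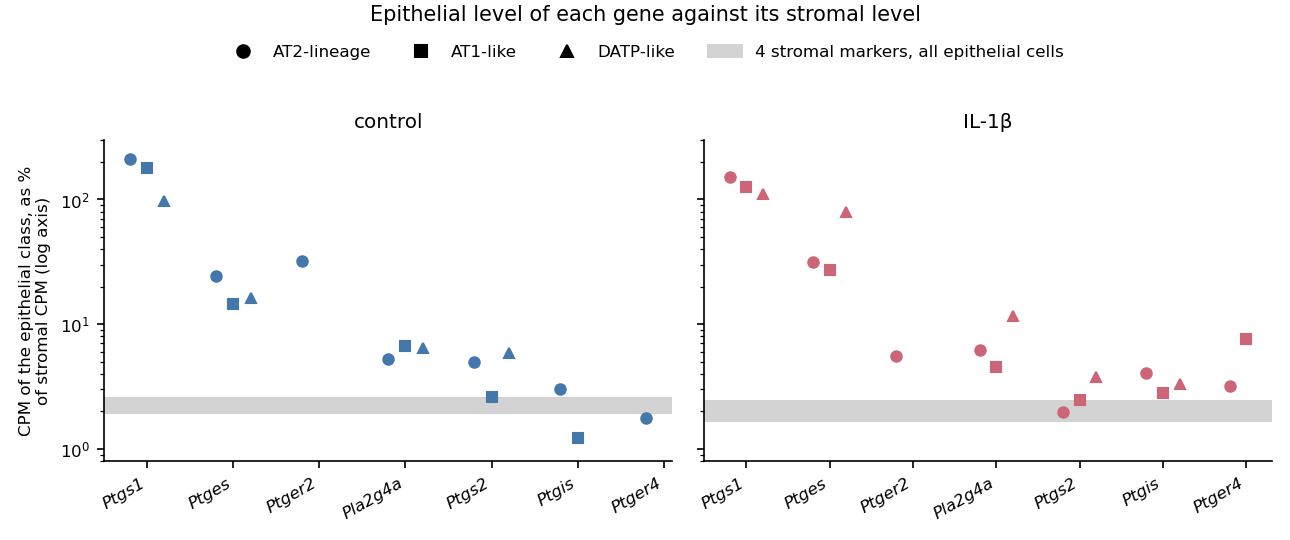
CPM of 7 genes in AT2-lineage (circles), AT1-like (squares) and DATP-like cells (triangles) as a percent of the stromal CPM of the same library (log axis), for control and IL-1β organoids; the grey band is the range of 4 stromal markers in all epithelial cells, and classes with no UMI are not drawn. Ptgs1 and Ptges lie far above the band in every class, whereas Ptgs2 of AT2-lineage cells lies above it in control at 5.02% and inside it in IL-1β organoids at 1.99%.

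Ptges, the inducible prostaglandin E synthase, was the only member called higher with IL-1β in all 4 classes. Stromal cells went from 102 CPM (96.8 to 108) to 326 CPM (315 to 338), a ratio of 3.20 (2.998 to 3.41). AT2-lineage cells went from 24.9 CPM (22.3 to 27.7) to 103 CPM (98.9 to 107), a ratio of 4.13 (3.69 to 4.65). AT1-like cells had 14.9 CPM in control and 89.0 CPM in IL-1β organoids, a ratio of 5.99 (4.51 to 8.08). The control DATP-like cells had 8 UMIs of Ptges, or 16.5 CPM, and those of IL-1β organoids 692 UMIs, or 259 CPM (240 to 279), a ratio of 15.6 (7.89 to 36.4). The control class of 33 cells depended on the clustering: under 3 other settings it had 0 cells and under another 14, so that no ratio was given. With each library clustered separately the log2 ratio was 2.79 in place of 3.97. In AT1-like cells the log2 ratio was 3.68 in place of 2.58 once the 5% of cells with the highest doublet scores were removed. In IL-1β organoids the DATP-like level was thus above that of AT2-lineage and AT1-like cells, with intervals that did not overlap. The epithelial levels were 14.6% to 24.4% of the stromal level in control and 27.3% to 79.3% in IL-1β organoids, several times the stromal background.

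Among AT2-lineage clusters of IL-1β organoids Ptges ranged from 94.6 to 128 CPM, and the control clusters had 25.7 CPM in the largest, of 806 cells, and 18.3 CPM in the cycling one. The cluster named pAT2-like, with 264 IL-1β cells led by Cxcl5 and Orm1, had 111 CPM and so lay inside the range of the other IL-1β clusters. That name was given by comparison within the IL-1β library, whereas the study called most cells of IL-1β organoids primed AT2 cells. The other IL-1β clusters may therefore hold primed cells too, and Ptges as a marker of them was not tested. The shares of cells with a Ptges UMI, at 4500 UMIs per cell, were higher in the IL-1β library in each epithelial class. They were 11.0% (8.99 to 13.2) and 37.3% (35.2 to 39.6) in AT2-lineage cells, 4.30% and 31.5% in AT1-like cells, and 12.1% and 61.9% in DATP-like cells, of which the control library had only 33. Unthinned, the shares in AT2-lineage cells were 28.1% and 66.2%, at medians of 14367 and 11375.5 UMIs per cell. The plot of shares gives these values beside those of both cyclooxygenases.

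**Figure D3:**
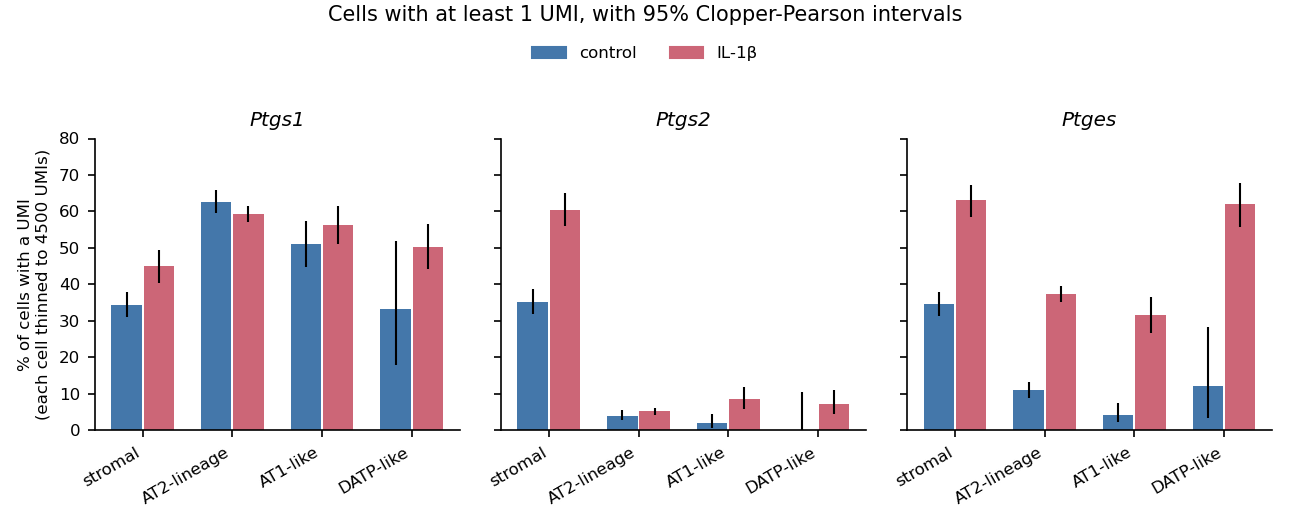
Percent of cells with at least 1 UMI of Ptgs1, Ptgs2 and Ptges after each cell was thinned to 4500 UMIs, by class, in control (blue) and IL-1β (red) organoids, with 95% Clopper-Pearson intervals. Ptges is found in a larger share of cells with IL-1β in every class, Ptgs2 exceeds 10% in stromal cells alone, and Ptgs1 is found in 62.7% and 59.3% of AT2-lineage cells.

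Ptgs2 and Ptges were often found in the same stromal cells with IL-1β. At 4500 UMIs per cell, 42.2% of IL-1β stromal cells had a UMI of both, against 12.6% in control. Of IL-1β stromal cells with a Ptgs2 UMI, 69.8% also had Ptges, and of those without it, 52.7%. In control the values were 35.7% and 33.9%. In the epithelium 21.2% of IL-1β AT2-lineage cells and 29.6% of IL-1β DATP-like cells had a UMI of Ptges and of Ptgs1, against 7.19% and 3.03% in control. Ptges was found in 35.7% of IL-1β AT2-lineage cells with a Ptgs1 UMI and in 39.7% of those without it, and in DATP-like cells in 58.8% and 65.1%. These shares describe the cells of 1 library each and were not tested.

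Ptgis, the prostacyclin synthase, was a stromal gene whose level was lower with IL-1β. It was at 44.0 CPM (40.6 to 47.7) in control and 22.5 CPM (19.6 to 25.7) in IL-1β stroma, a ratio of 0.510 (0.434 to 0.598) just short of the 2-fold limit. Epithelial classes had 0 to 1.32 CPM. With 596 and 213 stromal UMIs against 21 and 27 epithelial ones, Ptgis was 40.2-fold (26.1 to 65.5) and 25.9-fold (17.3 to 40.2) higher in stroma, and its epithelial level of 2.49% and 3.86% of the stromal one lay near the background. Ptgds, the prostaglandin D synthase, had 33 UMIs in the whole series, all of them in epithelial cells and 15 of them in AT1-like cells. The unnamed IL-1β cluster E10, with 35 cells, held 5 UMIs of Ptgds, or 9.17 CPM (2.98 to 21.4). In IL-1β AT1-like cells Ptgds was at 1.04 CPM (0.338 to 2.43), also from 5 UMIs. Stromal cells held 0 UMIs of Ptgds in both libraries, which allows at most 0.222 CPM in control and 0.317 CPM in IL-1β organoids. Hpgd, the inactivating dehydrogenase, had 13 UMIs in all, of which 8 were in control stroma and 0 in IL-1β stroma. A single control stromal cell held 5 of those 8, and no comparison of Hpgd or Ptgds reached 20 UMIs.

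The EP receptors were at low levels, higher in stromal than in epithelial cells, with Ptger2 called higher and Ptger4 lower with IL-1β in stroma. Ptger2 (EP2) was at 3.40 CPM (2.49 to 4.53) in control and 9.50 CPM (7.64 to 11.7) in IL-1β stroma, or 46 and 90 UMIs, a ratio of 2.79 (1.94 to 4.08). Without cluster S6, which held 54.4% of the IL-1β stromal UMIs of Ptger2, the ratio was 1.51 and not called. Ptger4 (EP4) was at 8.35 CPM (6.88 to 10.0) and 2.74 CPM (1.79 to 4.02), or 113 and 26 UMIs, a ratio of 0.329 (0.206 to 0.507). Over all stromal cells the order of the receptors thus differed between the libraries, Ptger4 being above Ptger2 in control and below it in IL-1β organoids. Not every cluster had this order. Ptger2 was above Ptger4 in control cluster S7 (16 and 6 UMIs) and below it in the IL-1β cells of S4 (2 and 4 UMIs). S6 held 49 UMIs of Ptger2 and 0 of Ptger4. In S1 and S3, Ptger2 was at 6.75 and 4.27 CPM and Ptger4 at 3.94 and 2.52 CPM, with overlapping intervals. In AT2-lineage cells Ptger2 had 15 UMIs in control (1.10 CPM) and 12 in IL-1β organoids (0.526 CPM), a ratio of 0.478 (0.204 to 1.09). These levels were 32.3% and 5.53% of the stromal ones, above the background. No Ptger2 UMI was found in AT1-like or DATP-like cells, and Ptger4 had 3 UMIs in all control and 4 in all IL-1β epithelial cells. The 3′ part of Ptger4 overlaps Ttc33 on the opposite strand, and Ptger2 overlaps the antisense gene Gm17173; whether counting used the strand is not given in the sources used here.

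In each class, the comparison of the libraries gave calls for some of the members tested. In stroma, 7 members were tested, of which Ptgs2, Ptges and Ptger2 were called higher and Ptger4 lower; of all genes tested, 5.16% were called higher and 12.6% lower. In AT2-lineage cells Ptges alone of 6 was called higher and none lower, where 9.04% of all genes were higher and 5.64% lower. In AT1-like cells 2 of 4 members, Ptges and Ptgs2, were called higher, against 5.49% of all genes, and none lower, against 4.3%. The Ptgs2 levels in those cells were close to background. In DATP-like cells 1 of 4 was called higher, against 5.7%, and none lower, against 6.44%. The median log2 ratio of the tested members was 0.57 in stroma, 0.15 in AT2-lineage, 0.79 in AT1-like and 1.22 in DATP-like cells, and that of all genes tested was -0.33, 0.10, 0.01 and -0.12.

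**Figure D4:**
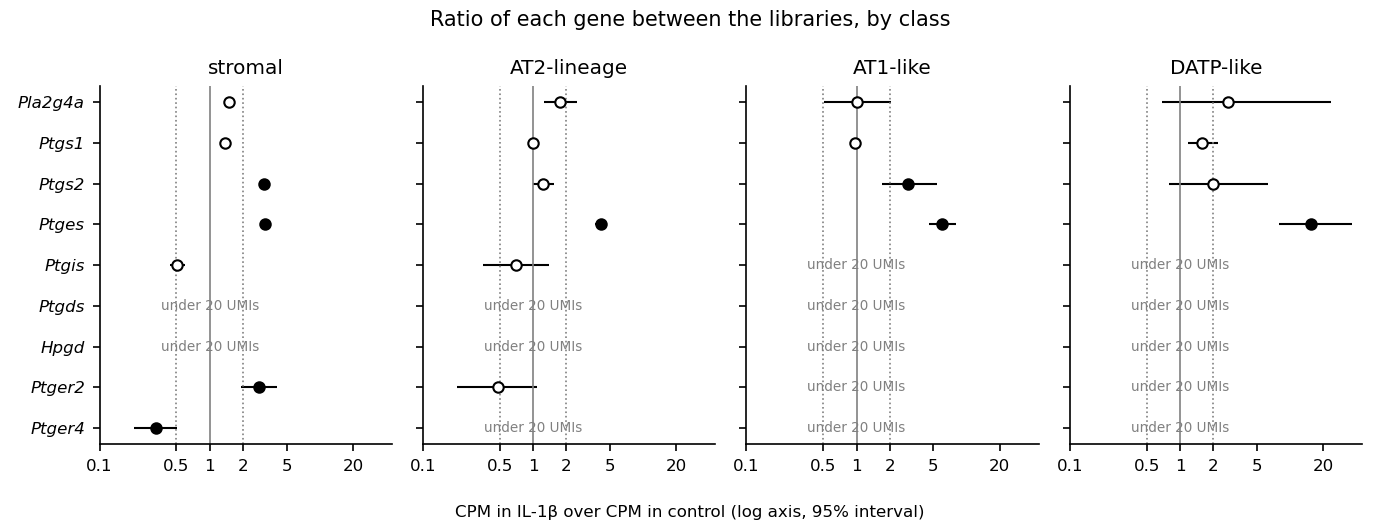
Ratio of CPM in IL-1β over control organoids (log axis) for each gene in the 4 classes, with exact 95% intervals; filled points are called, dotted lines mark 2-fold in either direction, and genes under 20 UMIs were not tested. Ptges lies above 2 in every class, from 3.20 in stroma to 15.6 in DATP-like cells, and Ptger4 is the only gene called lower.

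The stromal result rests in part on 1 group of cells. Stromal clusters split almost fully by library, so the control class consists mainly of clusters S0, S2, S4, S5, S7 and S9 and the IL-1β class mainly of S1, S3 and S6. Cluster S6, 74 IL-1β cells led by Il11, Mmp10, Crabp1 and Areg, had 1617 CPM (1554 to 1683) of Ptgs2, 658 CPM (617 to 700) of Ptges and 331 CPM (303 to 362) of Ptgs1. It made up 15.5% of IL-1β stromal cells and held 47.0% of their Ptgs2, 32.1% of their Ptges and 54.4% of their Ptger2 UMIs. Its Ptger2 level was 32.5 CPM (24.0 to 42.9) and no Ptger4 UMI was found in it. Without S6, a setting chosen after seeing the data, the log2 ratio in stroma fell from 1.65 to 0.98 for Ptgs2 and from 1.48 to 0.60 for Ptger2, and neither was then called. That of Ptges went from 1.68 to 1.37 and stayed called, that of Ptgs1 from 0.47 to 0.07, and that of Ptger4 from -1.61 to -1.36. The other main IL-1β clusters differed in depth. S1, with a median of 7738.5 UMIs, had 496 CPM of Ptgs2 and 300 CPM of Ptges, and S3, with a median of 28877 UMIs, had 277 and 260 CPM.

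Among control clusters Ptgs2 was highest in S4 (343 CPM), which had Thbs1 and Ctgf among its leading genes and 1852 CPM of the smooth muscle actin gene Acta2. In the other Acta2-high cluster, S9, with 28 cells and a median of 6532.5 UMIs, Ptgs2 was at 17.5 CPM (5.68 to 40.8). Both clusters had the most Ptgis, 115 CPM (101 to 131) in S4 and 105 CPM (70.8 to 150) in S9, and the 21 IL-1β cells of S4 had 101 CPM (77.6 to 129). The other control clusters had 12.8 to 37.8 CPM of Ptgis and the other IL-1β clusters 14.6 to 19.2 CPM. Ptger4 was highest in S0 (12.9 CPM) and S5 (10.6 CPM), which are control clusters. Within S4 alone, the one cluster with at least 20 cells of each library, Ptgs2 was at 343 CPM (318 to 369) in control and 447 CPM (396 to 503) in IL-1β organoids, and Ptges at 70.6 CPM (59.6 to 83.0) and 173 CPM (142 to 209).

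**Figure D5:**
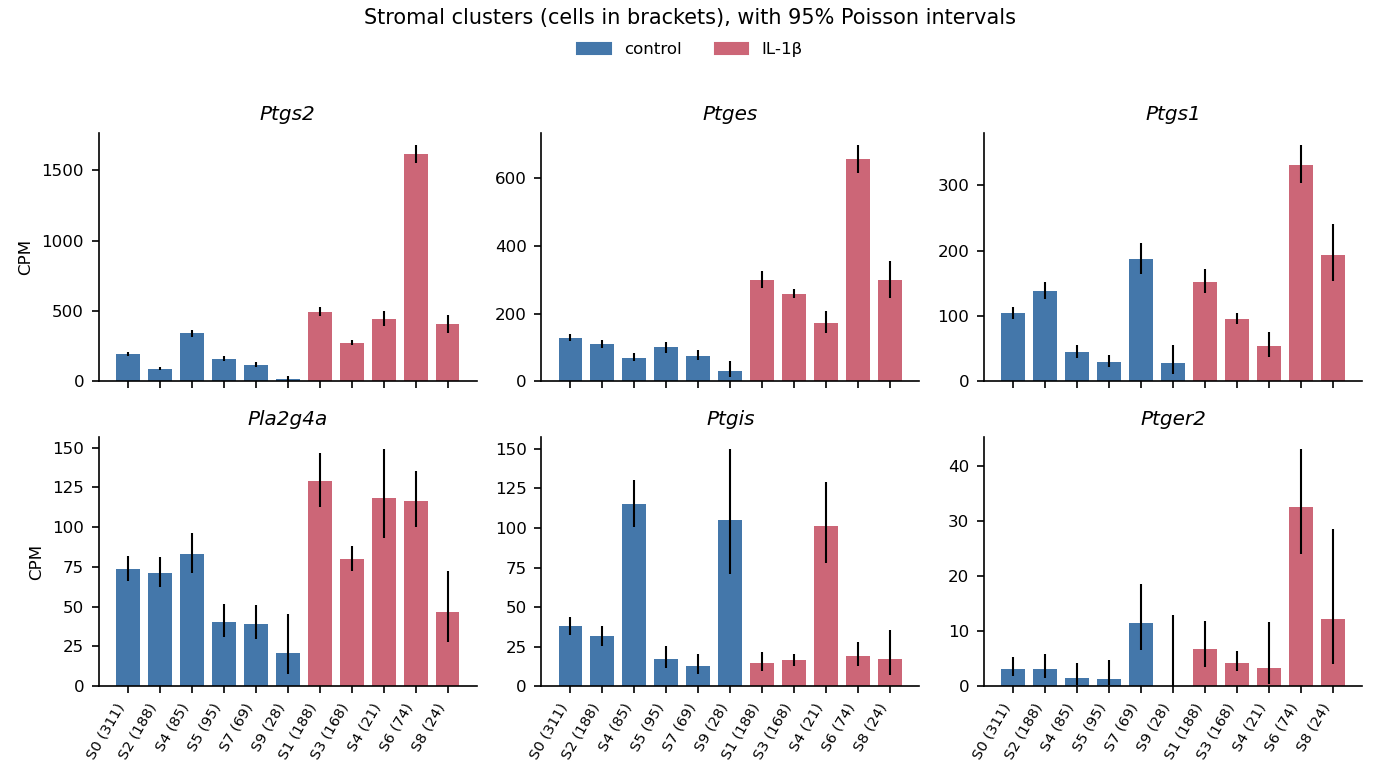
CPM of 6 genes in each stromal cluster with at least 20 cells of a library (number of cells in brackets), for control (blue) and IL-1β (red) organoids, with 95% Poisson intervals. Cluster S6 stands above the others for Ptgs2, Ptges, Ptgs1 and Ptger2, and Ptgis is highest in S4 and S9.

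The stroma of the libraries also differed in marker genes that move with these results. The summed level of 6 contractile markers was 566 CPM in control and 54.4 CPM in IL-1β stroma, where Actg2 and Des were at 0. The matrix proteoglycan gene Dcn was at 227 and 5655 CPM, while 8 matrix fibroblast markers summed to 225 and 91.9 CPM. Of the other stromal markers, Col1a1 was at 1403 and 1402 CPM, Col1a2 at 1449 and 1471 CPM, and Sparc at 3657 and 4002 CPM. Col3a1 was at 1678 and 948 CPM, Pdgfra at 201 and 134 CPM, and Pdgfrb at 221 and 122 CPM. Leaving out S4 and S9, also chosen after seeing the data, kept the calls, with a log2 ratio of 1.91 for Ptgs2. The log2 ratio of Ptgis, which was not called, went from -0.97 to -0.83 and stayed without a call. The summed level of 4 endothelial markers was 2.51 and 33.0 CPM in stroma, 17.7 CPM of the latter from Emcn. Of 8 macrophage and immune markers 4 were at 0 in IL-1β stroma, including Ptprc, and their sum was 14.6 and 18.3 CPM. In DATP-like cells that sum was 22.7 CPM in control and 81.1 CPM in IL-1β organoids, where 80.4 CPM came from Cd68 and Ptprc was at 0. In the same cells 4 mesothelial markers summed to 2.07 and 62.4 CPM, with 3 of the 4 at 0 in each library, and 5 airway markers to 47.6 and 72.9 CPM. The part of these other cell states in the results was not tested, and fewer cells of a kind and less RNA per cell cannot be told apart in summed counts.

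Of the 32 other genes of the prostaglandin lists, 22 were tested in stroma, of which Pla2g1b and Pla2g2e were called higher and Ptgfr and Tbxa2r lower. Pla2g1b, a secreted phospholipase of the epithelium, was in stroma at 0.0340 and 0.0747 times its epithelial level, close to the AT2 markers there. Pla2g2e had 2 and 20 UMIs and Tbxa2r, the thromboxane receptor, 44 and 10. Of all genes tested in stroma 5.16% were higher and 12.6% lower. Of the 9 receptors, Ptger2 and Ptger4 included, 7 were tested, 1 was called higher and 3 lower. Ptgfr, the prostaglandin F receptor, was at 34.6 CPM in control and 8.23 CPM in IL-1β stroma, a ratio of 0.238 (0.185 to 0.303). Ptgir, the prostacyclin receptor, was at 5.10 and 7.60 CPM, and Ptger1 (EP1) at 5.03 and 3.27 CPM, both without a call. Of the other prostaglandin E synthases, Ptges2 was at 24.1 and 24.6 CPM and Ptges3 at 171 and 116 CPM in stroma, and neither was called.

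In AT2-lineage cells 3 of the 18 other genes tested were called higher and none lower, against 9.04% and 5.64% of all genes. The carbonyl reductase Cbr1 was at 77.9 CPM in control and 213 CPM in IL-1β organoids, a ratio of 2.73 (2.56 to 2.92), and Fam213b, an enzyme of prostaglandin F synthesis, at 8.43 and 22.2 CPM, a ratio of 2.64 (2.15 to 3.26). Ptger3 (EP3) was called on 8 and 42 UMIs. In AT1-like cells 1 of 16, Fam213b, was called higher at 8.38 and 20.2 CPM, a share near the 5.49% of all genes. In DATP-like cells 2 of 14 were higher, Pla2g1b and Pla2g4f, and 2 lower, the transporter Abcc4 and the reductase Ptgr1, the last at 114 and 29.9 CPM, where 5.7% of all genes were higher and 6.44% lower. The prostaglandin transporter Slco2a1, which carries prostaglandins into cells, was an epithelial gene, at 145 and 200 CPM in epithelial cells and 11.9 and 22.1 CPM in stroma. Receptors were called higher in stroma than in epithelium for 7 of the 7 tested in control and 5 of the 6 tested in IL-1β organoids, against 22.9% and 15.8% of all genes. Other lists, members included, were mixed. Of the phospholipases 2 of 7 were higher and 3 lower in control, and 3 of 8 higher and 3 lower in IL-1β organoids. Terminal synthases gave 3 higher and 2 lower of 9, and 2 higher and 1 lower of 8. Of 4 transport and inactivation genes 0 were higher in either library, with 2 lower in control and 1 in IL-1β organoids. Of the 10 leukotriene and lipoxygenase genes, 2 were tested in stroma with no call, and 3 in AT2-lineage cells, of which 2 were higher, Ltb4r1, a leukotriene B4 receptor, at 1.98 and 6.13 CPM and Cysltr1 on 3 and 18 UMIs. Pla2g2e, Tbxa2r, Ptger3, Pla2g4f, Abcc4 and Cysltr1 had fewer than 50 UMIs in the class and were named after their values were seen.

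Over 10 groups of cells, each a class in 1 library, the genes whose log2(CPM + 1) was most like that of Ptgs2 were Aebp1 (Pearson r of 0.995), Loxl2 (0.993) and Il1rl1 (0.991). For Ptges they were Hp (0.959), Ccl20 (0.959) and Egln3 (0.956), and for Ptgs1 Smurf1 (0.952), Rap1gapos (0.888) and Rtkn (0.880). For Ptgis they were Hoxb7 (0.997), Obsl1 (0.993) and Meis2 (0.993), for Pla2g4a Rorb, Pdgfc and Aebp1 (each 0.982), for Ptger2 Etv1 (0.969), Clstn2 (0.959) and Htra3 (0.951), and for Ptger4 H2afy2 (0.973), Ptgfr (0.968) and Nol12 (0.961). The groups share libraries, and with 2 stromal groups among the 10 a gene of the stroma is like any other gene of the stroma on this measure, so these values are a description among 9848 genes.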

How the data were processed

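The authors deposited raw UMI counts per gene and cell barcode, with no normalization, made with Cell Ranger on GRCm38. The notes of the submitters also name mm9 and Scanpy 1.3.6. Libraries were loaded 2 to a sequencing lane. Barcodes with more than 500 and under 7000 genes and more than 2000 UMIs were kept, as in the methods of the study. Scrublet marked 3 of 5142 cells (0.0583%) as doublets, under the 0.5% at which the caller was regarded as working, so doublets remain. Counts were scaled to 10000 per cell, log-transformed, reduced to 50 principal components and clustered with 15 neighbors by Leiden at a resolution of 1 (Scanpy 1.11.5, leidenalg 0.10.2, Python 3.11.15), first into compartments and then within each. The 51 genes of the pathway lists took no part.

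Clusters were named by the mean log2 fold of their markers within the library that held most of the cluster (pseudocount 0.1). An epithelial cluster stayed unnamed if its leading genes held more markers of another list, airway and immune lists included. It also stayed unnamed with fewer than 3 markers above the other cells or with several mitochondrial leading genes. The same held for a cluster scored as cycling without a cycling marker among its leading genes, as E10, and for a shallow cluster without a leading marker. These naming rules were settled only once the clusters were known. The members and lists were chosen with earlier results of these data known. Levels are summed UMIs per 1000000 UMIs of the class (CPM) with exact Poisson intervals, ratios carry exact 95% intervals conditional on the summed counts, and shares have Clopper-Pearson intervals (SciPy 1.17.1). A gene with at least 20 UMIs over both groups was called when it differed at least 2-fold with an interval that excludes 1. Where no UMI was found, the level of 3 counts is drawn as a guide. All 9 members are named throughout, and a pathway gene outside them when it had at least 50 UMIs in a compared class. The genes most like a member were the 3 with the highest r, for members with at least 100 UMIs, among genes with at least 300 UMIs. The computation of ratios was checked on simulated counts with 200 changed genes in each comparison. Promoter windows are from RefSeq and gene positions from GENCODE M21, both on GRCm38. Another 11 settings were tried, and 3 more were added after seeing the data. Other samples of the study were not analysed here.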

Additional observations from a re-analysis of the deposited data

Results flagged for a closer look

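Of the cells that stayed unnamed and entered none of the class comparisons, 2 clusters held members above the AT2-lineage level of their own library. Cluster E8, 90 of its 93 cells from control and led by Scgb1a1, Cd24a and Cyp2f2, had 55.9 CPM (43.6 to 70.5) of Ptges, against 24.9 CPM in control AT2-lineage cells. Cluster E10, 35 IL-1β cells led by Ccl20 and Spib, had 29.3 CPM (16.8 to 47.6) of Ptgs2, from 16 UMIs, against 10.9 CPM in IL-1β AT2-lineage cells. The same cells had 128 CPM (100 to 162) of Ptges, against 103 CPM (98.9 to 107). These intervals overlap, and the AT2-like cluster E4 of that library also had 128 CPM (115 to 141). These differences were not tested, since each rests on 1 library.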

How the results depend on the processing

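No paired analysis was possible because each condition is 1 library. Of the 136 counts of called members recomputed, 123 stayed within 1.5 times the main count and 13 did not, and of the 418 log2 ratios 395 moved little, 23 moved and no called ratio turned its direction. Members called higher in stroma fell from 3 to 1 without cluster S6. Members called lower in stroma went from 1 to 2, with Ptgis as the second, when totals left out surfactant, mitochondrial and ribosomal protein genes, with the mean of per-cell CPM, and with compartments set from the markers of each cell. In AT2-lineage cells they went from 0 to 1, with Ptger2, under the first 2 of these. Members called higher in DATP-like cells went from 1 to 2 with no doublet removal, with each library clustered separately and with the mean of per-cell CPM. Members called lower in control stroma than in epithelium went from 0 to 1, with Ptgs1, when the 5% highest doublet scores were removed, with the smaller totals, with the mean of per-cell CPM and without cluster S8, whose cells also hold epithelial markers. The smaller totals shifted all log2 ratios by -0.14 in AT2-lineage cells and in control stroma over epithelium, and by less than 0.1 elsewhere. The log2 ratio of Ptges ranged from 2.79 to 4.36 in DATP-like cells and from 2.44 to 3.68 in AT1-like cells, and that of Ptgs1 in AT2-lineage cells from -0.15 to 0.04. With the 5% highest doublet scores removed, a resolution of 0.5 or Louvain clustering the control library had 0 DATP-like cells, and with another random seed 14, so that these gave no value. The receptors, Hpgd and Ptgds are limited by their counts.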
